A study of Mus musculus with 4 samples.

Results

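The guanylate-binding protein (GBP) genes Gbp2, Gbp3, Gbp4, Gbp5, Gbp6, Gbp7, Gbp8 and Gbp9 were followed through 4 single-cell RNA libraries of mouse plasma cells. They are 8 of the 24421 gene columns in the deposited tables. The genes were listed by name, and the list was chosen by their molecule counts in these same libraries, which differed, so their levels are given as a description and without a test. All libraries came from cells sorted as CD138+ B220-, the surface profile of plasma cells, from mice of C57/BL6 background. The VQ lymph node library (1 library, 185 cells) and the VQ bone marrow libraries (2 libraries, 245 and 188 cells) carry the name VQ-D2 in the labels, shortened here to VQ, and hold donor-derived cells from recipient mice with the disease state multiple myeloma, whose labelled genotype is V{kappa}*MYC with Nras LSL Q61R/+ and IgG1-Cre. The wild-type bone marrow library (1 library, 163 cells) came from age-matched controls with no transgene named in the labels. V{kappa}*MYC places MYC expression under control of a kappa light chain construct that is switched on by somatic hypermutation, and IgG1-Cre opens the Nras allele in B cells that have expressed the IgG1 constant region, so both act in B-lineage cells. The labels do not state how many mice gave each library, whether the pair of VQ bone marrow libraries came from different mice, whether the lymph node and bone marrow came from the same mice, or how much host marrow the recipients kept.

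GBPs are large GTPases that are induced strongly by interferon-gamma and also by type I interferon. In mice the interferon-gamma signal runs through the receptor and the kinases Jak1 and Jak2, acts on genes with GAS elements and induces Irf1, a factor that binds interferon-stimulated response elements (ISREs). The proteins assemble on the membranes of vacuoles that hold intracellular pathogens and take part in inflammasome activation and autophagy, together with the immunity-related GTPases (IRGs), a second interferon-induced GTPase family.

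Molecules were counted as unique molecular identifiers (UMIs) at the 3′ end of transcripts. The members were counted in all 185 VQ lymph node cells, in VQ marrow cells in which Jchain made up under 5% of UMIs (226 and 170 cells) and in wild-type marrow cells in which Jchain made up at least 5% (106 cells). Jchain encodes the joining chain of secreted IgA and IgM. These cells held 803752 UMIs in the VQ lymph node, 1045005 and 444437 in the VQ marrow libraries and 204002 in the wild-type marrow. Their median depth was 3978 UMIs per cell in the VQ lymph node, 4700 and 2646 in the VQ marrow and 1998.5 in the wild-type marrow. Against the library totals a single UMI equals 1.24 UMIs per 1000000 UMIs (CPM) in the VQ lymph node, 0.957 and 2.25 CPM in the VQ marrow and 4.90 CPM in the wild-type marrow. In the wild-type cells 20.4% of UMIs were Jchain, against 0.500% in the VQ lymph node and 0.572% and 0.554% in the VQ marrow, a gap that the choice of cells partly sets. No cell barcode was shared between libraries. Sdc1, which encodes CD138, had a UMI in 77.8% of the chosen VQ lymph node cells, in 77.9% and 68.2% of the VQ marrow cells and in 66.98% of the wild-type cells, and between 12 and 14 of the 14 plasma cell markers were detected in each library. Cd38 had 0 UMIs in the VQ lymph node and in VQ marrow replicate 2.

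The 8 genes lie in 2 clusters (GRCm38, GENCODE M21 annotation, all protein coding). Gbp5 (chr3:142493978-142522344), Gbp7 (chr3:142530342-142550149), Gbp3 (chr3:142560026-142573209) and Gbp2 (chr3:142620602-142638008) lie on the plus strand within 144.031 kb. Gbp8 (chr5:105014150-105139540), Gbp9 (chr5:105077630-105139539), Gbp4 (chr5:105115767-105139586) and Gbp6 (chr5:105270702-105293698) lie on the minus strand within 279.549 kb. The annotated extents of Gbp4, Gbp8 and Gbp9 overlap each other on the same strand. Because the assay reads transcript ends, the last 400 bases of each protein-coding GBP transcript were cut into words of 50 bases. The words were searched for along the whole length of the annotated transcripts of every other gene. A shared word thus need not lie at the end of the other gene. None of the words of Gbp2 and Gbp7 occurred in another gene, and 2.12% of those of Gbp5, 4.30% of those of Gbp3, 4.84% of those of Gbp9 and 9.40% of those of Gbp8 did. The share was 22.9% for Gbp4 and 88.0% for Gbp6, whose shared words occurred in Gbp9, Gbp10 and Gm43302. The split of reads among Gbp4, Gbp8 and Gbp9 is therefore uncertain in part, and the value of Gbp6 is uncertain as a whole.

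Promoter windows were available for 4 of the 8 genes, those on chromosome 3, which held most of the family's UMIs. Each window shown carries an ISRE core, the element bound by interferon-induced factors. The windows come from RefSeq (GRCm38.p6) and run from 250 bases before to 50 bases after a start site, in the direction of the gene. The capitals mark the ISRE core, searched on both strands as GAAA, any 2 bases and GAAA again. In all 4 windows it lies on the strand opposite the gene and so reads TTTC, 2 bases and TTTC.
Gbp5 (chr3:142496684-142496983): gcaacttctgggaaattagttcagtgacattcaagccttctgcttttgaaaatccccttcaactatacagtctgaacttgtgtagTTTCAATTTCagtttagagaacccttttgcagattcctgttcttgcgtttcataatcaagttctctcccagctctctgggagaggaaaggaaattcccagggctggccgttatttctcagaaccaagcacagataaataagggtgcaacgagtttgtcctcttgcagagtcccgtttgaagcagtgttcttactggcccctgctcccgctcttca
Gbp7 (chr3:142530086-142530385): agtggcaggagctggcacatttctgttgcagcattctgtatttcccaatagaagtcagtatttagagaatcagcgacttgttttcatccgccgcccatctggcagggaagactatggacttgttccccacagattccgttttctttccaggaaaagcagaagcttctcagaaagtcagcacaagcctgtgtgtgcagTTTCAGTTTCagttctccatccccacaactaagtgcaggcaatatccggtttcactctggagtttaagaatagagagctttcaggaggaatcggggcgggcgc
Gbp3 (chr3:142559794-142560093): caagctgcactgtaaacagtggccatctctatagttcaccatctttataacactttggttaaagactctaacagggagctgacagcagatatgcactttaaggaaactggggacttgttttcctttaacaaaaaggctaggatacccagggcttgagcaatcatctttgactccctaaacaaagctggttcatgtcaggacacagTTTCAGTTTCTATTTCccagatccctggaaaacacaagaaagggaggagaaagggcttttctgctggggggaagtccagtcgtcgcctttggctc
Gbp2 (chr3:142620413-142620712): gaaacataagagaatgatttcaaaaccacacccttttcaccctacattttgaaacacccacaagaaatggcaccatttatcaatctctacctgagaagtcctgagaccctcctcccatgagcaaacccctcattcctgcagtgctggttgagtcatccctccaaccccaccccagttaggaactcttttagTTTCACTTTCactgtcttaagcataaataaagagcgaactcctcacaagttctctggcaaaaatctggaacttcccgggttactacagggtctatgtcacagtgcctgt

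The ISRE core begins 165 bases before the start site in Gbp5, 53 in Gbp7, 45 in Gbp3 and 59 in Gbp2. In Gbp3 a second match begins 39 bases before the start and overlaps the first. A second RefSeq window of Gbp3, further into the gene, holds no match. The GAS motif, TTC, any 3 bases and GAA, which reads the same on both strands, was found 2 times each in the windows of Gbp5 and Gbp7 and not in those of Gbp2 and Gbp3. Over all 32851 RefSeq windows of this length, 3.443% hold the ISRE core, 8.298% the GAS motif and 0.4536% both. Gbp2b, a neighbour of Gbp2 in the chromosome 3 cluster, also holds an ISRE core, 137 bases before its start, and had 0 UMIs in the chosen cells of every library. No window of Gbp4, Gbp6, Gbp8 or Gbp9 was available, so their promoters were not searched. A match describes letters and not binding.

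Summed over the 8 genes, the family was highest in the VQ lymph node and lowest in the wild-type marrow. It had 1290 UMIs in the VQ lymph node, 305 and 150 in the VQ marrow libraries and 24 in the wild-type marrow. As a level this is 1605 CPM in the VQ lymph node (exact Poisson 95% interval 1519 to 1695), 291.9 CPM (260.0 to 326.5) and 337.5 CPM (285.7 to 396.0) in the VQ marrow, and 117.6 CPM (75.4 to 175.0) in the wild-type marrow. These intervals and all others here cover counting error and not the spread between mice. At this count the VQ lymph node lay far above both VQ marrow libraries, whose intervals overlap each other and lie above that of the wild-type library. The VQ lymph node level was 5.25 times the VQ marrow level (4.72 to 5.86), and 5.50 times and 4.76 times the level of VQ marrow replicate 1 and replicate 2 taken singly. Against the wild-type level it was 13.6 times as high (9.13 to 21.4). The VQ marrow level was 2.60 times the wild-type level (1.72 to 4.10) by library totals, and 2.02 times with trimmed-mean (TMM) scaling. After every cell was thinned to 1000 UMIs, the VQ marrow level was 1.41 times the wild-type level, from 15 UMIs in the wild-type library. Thinning was a single random draw, and how far this ratio varies between draws was not tested. There is 1 library each of the VQ lymph node and the wild-type marrow, so their spread between mice is unknown.

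**Figure D1:**
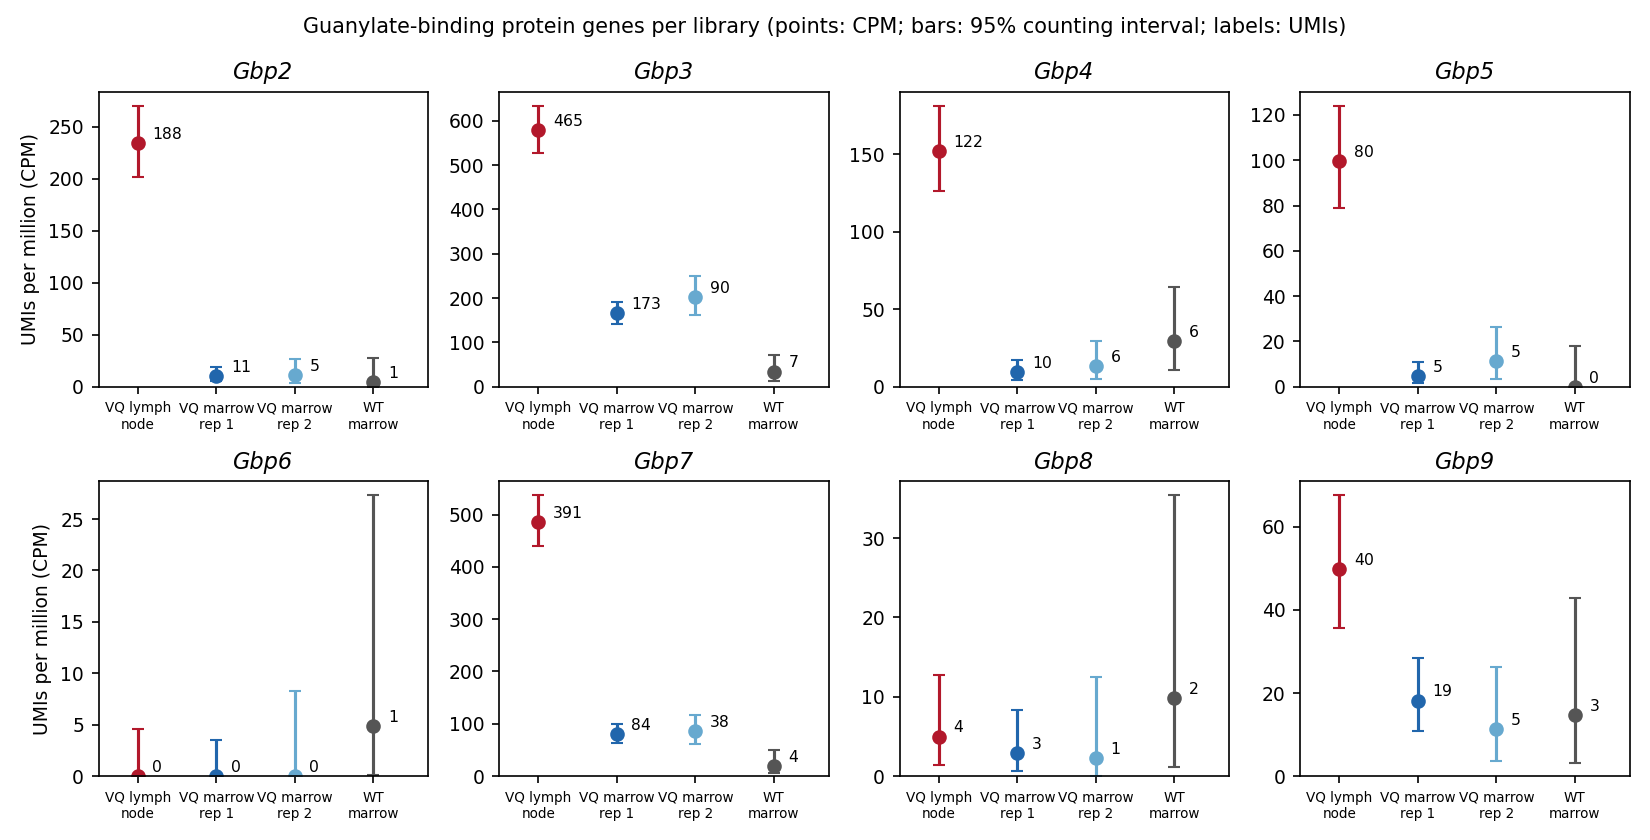
CPM (y axis, own scale per panel, from 0) for each of the 8 genes in the VQ lymph node, the 2 VQ marrow libraries and the wild-type marrow (x axis). Points are the value of each library, bars are exact Poisson 95% intervals and labels are UMIs. Gbp2, Gbp3, Gbp4, Gbp5 and Gbp7 are highest in the VQ lymph node with intervals clear of the other libraries, while Gbp6 and Gbp8 have at most 4 UMIs in a library.

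Gbp3 and Gbp7, the most abundant members, were also the members that were clearly present in the VQ marrow. Gbp3 had 465 UMIs in the VQ lymph node, 173 and 90 in the VQ marrow and 7 in the wild-type marrow, which is 578.5 CPM in the VQ lymph node, 165.5 and 202.5 CPM in the VQ marrow and 34.3 CPM in the wild-type marrow. Its level in the VQ lymph node was 3.28 times that in the VQ marrow (2.81 to 3.83), and its level in the VQ marrow was 5.15 times that in the wild-type marrow (2.46 to 12.9). The counting intervals of these levels did not overlap between the groups.

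Gbp7, whose product has been tied to the delivery of antimicrobial enzymes and autophagy proteins to phagosomes in mice, had 391 UMIs in the VQ lymph node, 84 and 38 in the VQ marrow and 4 in the wild-type marrow. Its level was 486.5 CPM in the VQ lymph node, 80.4 and 85.5 CPM in the VQ marrow and 19.6 CPM in the wild-type marrow. The VQ marrow pair averaged 82.9 ± 3.6 CPM (SD, n = 2). This puts the VQ lymph node at 5.94 times the VQ marrow (4.84 to 7.34) and the VQ marrow at 4.18 times the wild-type marrow (1.59 to 15.6). For both Gbp3 and Gbp7 the VQ marrow stayed above the wild-type marrow on the log2 scale under every alternative fitted, with a range of 1.20 to 2.63 for Gbp3 and 0.92 to 2.46 for Gbp7. These alternatives reuse the same libraries and are not independent support. In the chosen wild-type cells the values rest on 7 UMIs of Gbp3 and 4 of Gbp7.

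Gbp2, Gbp4 and Gbp5 were common in the VQ lymph node and near the detection limit elsewhere. Gbp2, a prenylated member that attaches to vacuole membranes and has been linked to the AIM2 inflammasome in mice, had 188 UMIs in the VQ lymph node, 11 and 5 in the VQ marrow and 1 in the wild-type marrow, which is 233.9 CPM in the VQ lymph node, 10.5 and 11.3 CPM in the VQ marrow and 4.90 CPM in the wild-type marrow. Its 21.8-fold higher level in the VQ lymph node than in the VQ marrow (13.1 to 38.9) was the largest point ratio among the members between those tissues, with an interval that overlaps those of Gbp4 and Gbp5. Its VQ marrow to wild-type ratio of 2.19 had an interval of 0.340 to 91.9, so no difference was detectable at this depth.

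Gbp5, another prenylated member, linked to the NLRP3 inflammasome, had 80 UMIs in the VQ lymph node, 5 and 5 in the VQ marrow and 0 in the wild-type marrow. These are 99.5 CPM in the VQ lymph node and 4.79 and 11.3 CPM in the VQ marrow. In the VQ lymph node Gbp5 was thus 14.8 times the VQ marrow level (7.66 to 32.1). Against the wild-type library, where 0 UMIs allow up to 14.7 CPM at a floor of 3 counts, the VQ lymph node was at least 6.77-fold higher at that floor.

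Gbp4 had 122 UMIs in the VQ lymph node, 10 and 6 in the VQ marrow and 6 in the wild-type marrow. The levels were 151.8 CPM in the VQ lymph node, 9.57 and 13.5 CPM in the VQ marrow and 29.4 CPM in the wild-type marrow. Gbp4 in the VQ lymph node was 14.1 times the VQ marrow (8.36 to 25.5) and 5.16 times the wild-type marrow (2.30 to 14.3). The VQ marrow was 0.365 times the wild-type marrow, with an interval of 0.136 to 1.14 that spans equality. Gbp4 thus had its lowest point values in the VQ marrow, unlike Gbp2, Gbp3, Gbp5 and Gbp7, and part of its 3′ end is shared with other members.

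Gbp9 had 40 UMIs in the VQ lymph node, 19 and 5 in the VQ marrow and 3 in the wild-type marrow, which is 49.8 CPM in the VQ lymph node, 18.2 and 11.3 CPM in the VQ marrow and 14.7 CPM in the wild-type marrow. Its VQ lymph node level was 3.09 times that of the VQ marrow (1.82 to 5.36), and the ratio of VQ marrow to wild-type marrow was 1.10 (0.333 to 5.69). Gbp8 had 4 UMIs in the VQ lymph node, 3 and 1 in the VQ marrow and 2 in the wild-type marrow. Gbp6 had 0 UMIs in the 3 VQ libraries and 1 in the wild-type marrow. At a floor of 3 counts its 0 allows up to 3.73 CPM in the VQ lymph node and 2.87 and 6.75 CPM in the VQ marrow. No difference between groups was detectable for Gbp6 and Gbp8 at this depth. Of the GBP genes outside the list, Gbp2b and Gbp10 had 0 UMIs in the chosen cells of every library and Gbp11 had 1, in VQ marrow replicate 1. Of the 3′ words of Gbp10 100% occurred in other genes, and 41.6% of those of Gbp11, against 0% for Gbp2b. The values of Gbp10 and Gbp11 are therefore uncertain.

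Gbp3 and Gbp7 supplied most of the family's UMIs in the VQ libraries. UMIs at the 3′ end are not scaled by transcript length, so they can be ordered as molecules counted. In the VQ lymph node the order was Gbp3, Gbp7, Gbp2, Gbp4, Gbp5, Gbp9 and Gbp8, and Gbp3 (527.1 to 633.6 CPM) and Gbp7 (439.4 to 537.2 CPM) were the neighbours whose intervals overlapped. In the VQ marrow Gbp3 and Gbp7 also led, and the counts of Gbp2, Gbp4, Gbp5 and Gbp9, between 5 and 19 UMIs, were too low to order. Gbp3 supplied 36.1% of the family's UMIs in the VQ lymph node, 56.7% and 60.0% in the VQ marrow and 29.2% in the wild-type marrow. Gbp2 supplied 14.6% in the VQ lymph node and 3.61% and 3.33% in the VQ marrow. Gbp7 held similar shares in the VQ tissues, 30.3% in the VQ lymph node and 27.5% and 25.3% in the VQ marrow. The VQ marrow pool was thus largely Gbp3 and Gbp7, whereas Gbp2, Gbp4 and Gbp5 added to it in the VQ lymph node. In the wild-type marrow Gbp4 supplied 6 of 24 UMIs, too few to give an order.

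**Figure D2:**
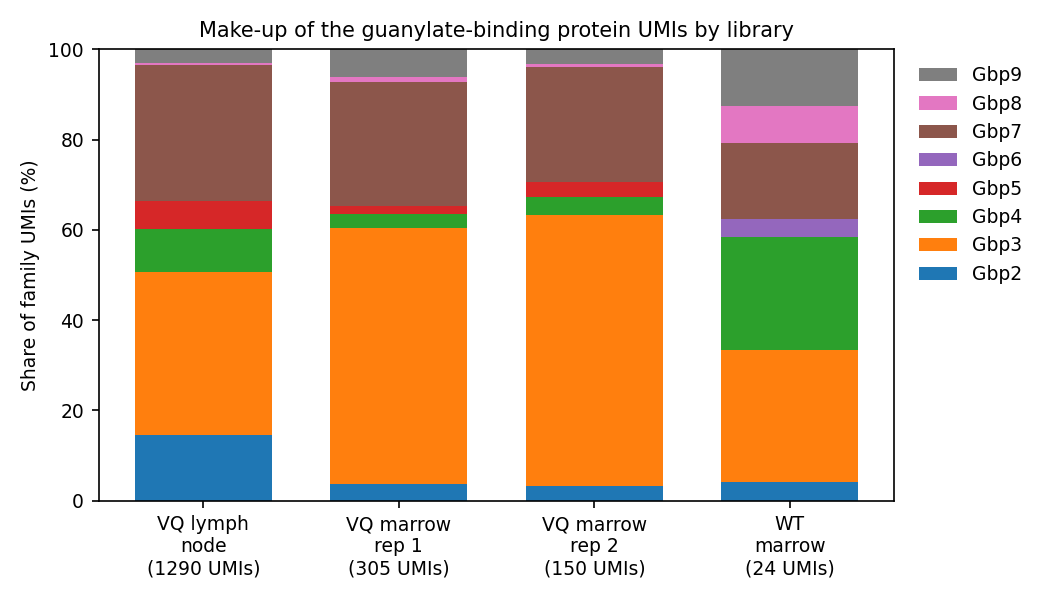
Share of the family's UMIs (y axis, percent) that each of the 8 genes supplied in each library (x axis, with total family UMIs). Gbp3 makes up 36.1% in the VQ lymph node against 56.7% and 60.0% in the VQ marrow, and the wild-type bar rests on 24 UMIs.

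The family's UMIs were spread over most VQ lymph node cells. At least 1 UMI of a member was found in 170 of 185 VQ lymph node cells (91.9%, exact Clopper-Pearson 95% interval 87.0 to 95.4), in 135 of 226 (59.7%) and 79 of 170 (46.5%) VQ marrow cells and in 19 of 106 wild-type cells (17.9%, 11.2 to 26.6). Gbp3 was found in 78.4% of VQ lymph node cells, 41.6% and 32.9% of VQ marrow cells and 4.72% of wild-type cells. Gbp7 was found in 64.9% of VQ lymph node cells, 24.3% and 18.2% of VQ marrow cells and 3.77% of wild-type cells. The share with Gbp2 was 42.2% in the VQ lymph node, 4.87% and 2.35% in the VQ marrow and 0.943% in the wild-type marrow.

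These shares depend on depth. With every cell thinned to 1000 UMIs, which left out 14 VQ lymph node, 22 and 32 VQ marrow and 19 wild-type cells, the share with a family UMI was 71.4% in the VQ lymph node (63.9 to 78.0), 22.1% (16.6 to 28.4) and 18.8% (12.7 to 26.4) in the VQ marrow and 16.1% (9.09 to 25.5) in the wild-type marrow. At this depth the VQ lymph node stood apart, while the intervals of the VQ marrow and wild-type libraries overlapped. With thinning to 500 UMIs, which left out fewer cells, the share was 49.7% (42.3 to 57.2) in the VQ lymph node, 17.65% (12.9 to 23.3) and 19.9% (13.8 to 27.1) in the VQ marrow and 4% (1.1 to 9.93) in the wild-type marrow. There the VQ marrow intervals lay above that of the wild-type marrow. Each depth was a single random draw of UMIs that was not repeated. A change of this comparison with depth thus cannot be told from a change with the draw. Gbp3 alone was found in 40.9% of thinned VQ lymph node cells, 12.7% (8.50 to 18.1) and 11.6% (6.77 to 18.1) of VQ marrow cells and 4.60% (1.27 to 11.4) of wild-type cells at 1000 UMIs, with intervals of the VQ marrow and wild-type libraries that overlapped. No cell type known to lack these genes was present in number, so the share that free RNA would give was not measured.

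**Figure D3:**
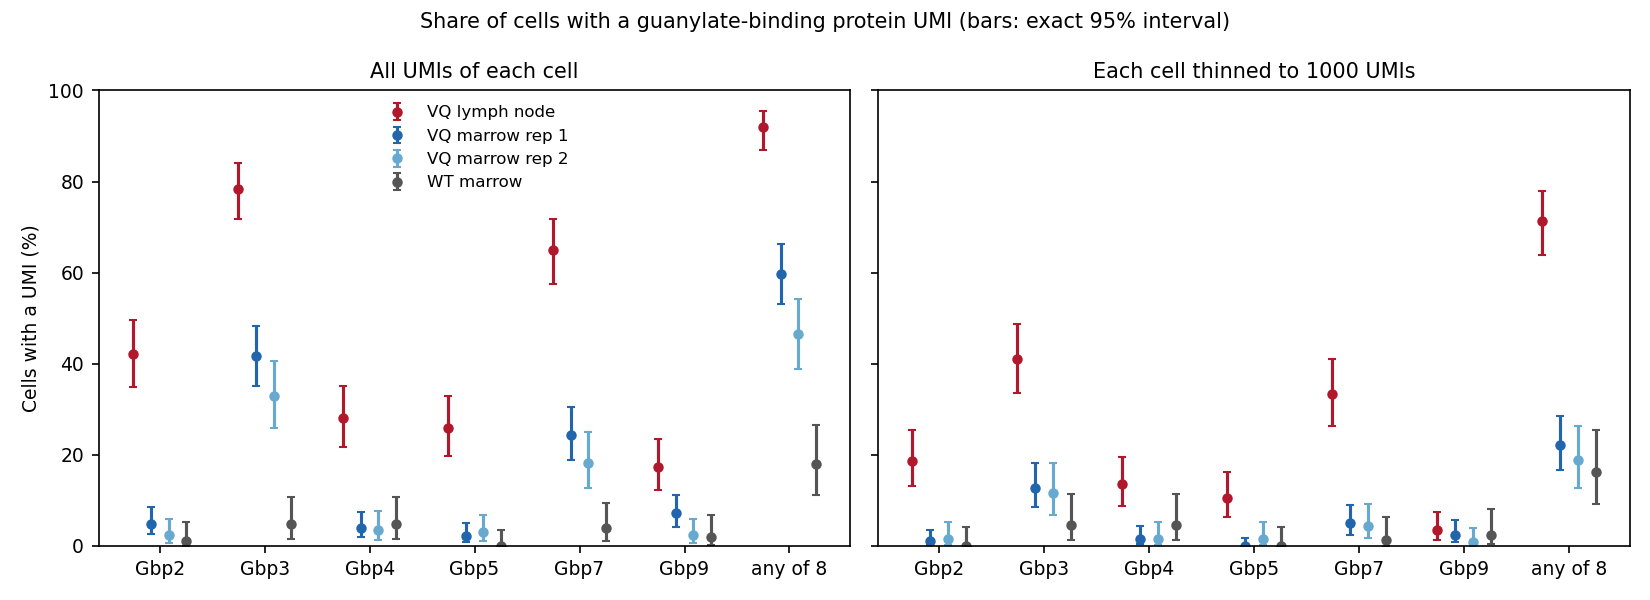
Share of cells with at least 1 UMI (y axis, percent) for 6 members and for any of the 8, with all UMIs (left panel) and with each cell thinned to 1000 UMIs (right panel). Points are libraries and bars exact 95% intervals. The family share is 91.9% in the VQ lymph node without thinning and 71.4% with it, against 22.1% and 18.8% in thinned VQ marrow cells and 16.1% in thinned wild-type cells.

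Single VQ lymph node cells often carried several members. At least 3 different members were detected in 93 of 185 VQ lymph node cells (50.3%), in 10 of 226 (4.42%) and 4 of 170 (2.35%) VQ marrow cells and in 0 of 106 wild-type cells, which at a floor of 3 counts allows a share of such detections of up to 2.83%. After thinning the count was 18 of 171 in the VQ lymph node (10.5%), 0 of 204 and 1 cell (0.725%) in the VQ marrow and 0 of 87 in the wild-type marrow. The median VQ lymph node cell had 5 family UMIs, or 12.1 per 10000 UMIs (quartiles 6.25 and 20.4), and the highest had 90.0 per 10000. The medians in the VQ marrow were 1.91 and 0 per 10000 and that of the wild-type marrow was 0. The tenth of VQ lymph node cells with most family UMIs held 34.6% of them, against 41.6% and 44.7% in the VQ marrow libraries and 66.7% in the wild-type marrow. After thinning these shares were 36.2% in the VQ lymph node, 52.0% and 63.6% in the VQ marrow and 66.7% in the wild-type marrow. Mean family UMIs per unthinned cell were 6.97 in the VQ lymph node and 1.35 and 0.88 in the VQ marrow. The part of these counts in the gap was not tested.

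**Figure D4:**
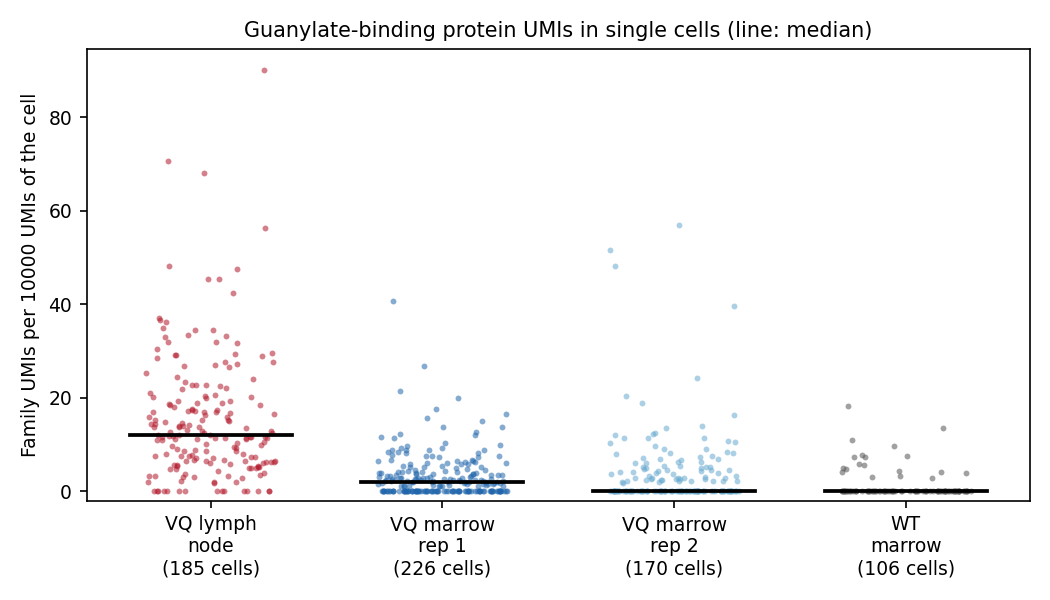
Family UMIs per 10000 UMIs of the cell (y axis) for each chosen cell of the 4 libraries (x axis), with the median as a line. The median is 12.1 in the VQ lymph node, 1.91 and 0 in the VQ marrow and 0 in the wild-type marrow, and 15 of 185 VQ lymph node cells have no family UMI.

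Within the VQ lymph node the family was high in cells with and without transcripts of the cell cycle and of the plasma cell gene Mzb1. Cells with a UMI of the proliferation genes Mki67 or Top2a (100 cells) had 1653 CPM (1543 to 1770) and cells without (85 cells) had 1524 CPM (1388 to 1670). Cells with a UMI of Mzb1, which encodes a chaperone of antibody assembly, had 1484 CPM (1388 to 1585, 126 cells) and those without had 1960 CPM (1773 to 2161, 59 cells). Median depth was 4346 UMIs in VQ lymph node cells with Mzb1 and 3079 in those without, and its part in this gap was not tested. Both values stood several times above those of the VQ marrow. Mzb1 itself was at 1355 CPM in the VQ lymph node, 45.0 and 51.8 CPM in the VQ marrow and 4760 CPM in the wild-type marrow, an order that the GBPs do not share.

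Few family UMIs lay near the Jchain threshold. In the wild-type marrow, the 10 cells just inside the threshold (5% to 8% Jchain) held 1 family UMI and the 7 just outside (3% to 5%) held 0. In VQ marrow replicate 1 the 2 cells just inside held 1 and the single cell just outside held 0, and in replicate 2 the 3 cells just outside held 0. The 57 wild-type cells under the threshold had 19 family UMIs (139.4 CPM, 84.0 to 217.8). The 24 wild-type cells of any Jchain share that carried B cell precursor markers held 17 family UMIs. Of the chosen wild-type cells 1 carried such markers, so these 24 cells lie mostly among the 57 under the threshold. The VQ marrow cells above it had 4 family UMIs in 19 cells and 5 in 18 cells.

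Markers of other cell types differed between the libraries. The 11 neutrophil markers summed to 14.9 CPM in the VQ lymph node, 1024 and 2927 CPM in the VQ marrow and 63.7 CPM in the wild-type marrow, with S100a8 and S100a9 at 0 in the VQ lymph node. The 12 measured T and NK cell markers, cells that can make interferon-gamma, summed to 64.7 CPM in the VQ lymph node, 59.3 and 42.8 CPM in the VQ marrow and 34.3 CPM in the wild-type marrow. Of their 52 UMIs in the VQ lymph node 36 were Gzma, 7 Cd8b1, 4 Cd4, 2 Cd3e, 2 Lat and 1 Cd3g, and the other 6 markers, Cd3d and Nkg7 among them, were at 0. Cd8b1 had 2 and 0 UMIs, Cd4 0 and 0 and Gzma 19 and 5 in the VQ marrow. Cd3g had 14 and 6 UMIs there, Cd3e 10 and 3 and Cd3d 6 and 4. Lat had 6 and 0, Nkg7 4 and 1 and Cd5 1 and 0. Some markers were thus higher in the VQ lymph node and others in the VQ marrow. The monocyte, macrophage and dendritic cell list summed to 567.3 CPM in the VQ lymph node, 414.4 and 387.0 CPM in the VQ marrow and 284.3 CPM in the wild-type marrow. In the VQ lymph node 378 of its 456 UMIs were Bst2, itself an interferon-induced gene, and 76 were Cd68, while Lyz2 and Csf1r were at 0. Cd68 was found in 27.6% of VQ lymph node cells, 39.8% and 21.8% of VQ marrow cells and 6.60% of wild-type cells. The B cell list summed to 531.3 CPM in the VQ lymph node, 455.5 and 366.8 CPM in the VQ marrow and 960.8 CPM in the wild-type marrow, most of it Cd79b. Ms4a1, which encodes CD20, had 0 CPM in the VQ lymph node, 0 and 2.25 CPM in the VQ marrow and 73.5 CPM in the wild-type marrow. The B cell precursor list summed to 1.24 CPM in the VQ lymph node, 19.1 and 18.0 CPM in the VQ marrow and 161.8 CPM in the wild-type marrow. Without cells that carried markers of another type, the family's VQ lymph node to VQ marrow ratio was 5.18, and 5.27 with Bst2 taken off the list, an alternative added after the data were seen. Its VQ marrow to wild-type ratio was then 2.76 and 2.69.

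The interferon pathway around the GBPs was compared between groups with edgeR's quasi-likelihood test over 8286 genes. In it the spread comes from the VQ marrow pair alone (1 residual degree of freedom). The dispersion was pooled over genes and not set gene by gene (common biological coefficient of variation 0.093, infinite prior degrees of freedom). The p-values thus measure the pooled spread between the VQ marrow libraries, which may be technical. The single libraries are assumed to vary like them. Between VQ lymph node and VQ marrow 3.13% of all genes tested were called at an adjusted p under 0.05, 1.86% higher and 1.27% lower in the VQ lymph node, and the median log2 fold change of all genes was -0.02. The lists were drawn up with earlier results of these data known.

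Of the IRGs, the second GTPase family, 8 of 8 tested genes were higher in the VQ lymph node than in the VQ marrow, with a median log2 fold change of 2.87. The 8 tested include Irgm1 and Igtp, regulators that guard host membranes, and the effector Iigp1. Ifi47 had 246.3 CPM in the VQ lymph node and 29.7 and 42.8 CPM in the VQ marrow (log2 fold change 2.89, SE 0.23, edgeR adjusted p = 1.33e-31). Tgtp1 had 38 UMIs in the VQ lymph node and 1 and 0 in the VQ marrow (log2 fold change 5.80, SE 0.82, edgeR adjusted p = 3.79e-10). Iigp1 had 40 UMIs in the VQ lymph node and 4 and 0 in the VQ marrow (4.15, SE 0.62, edgeR adjusted p = 2.94e-09). Gm12250 was also among those called, with 80.9 CPM in the VQ lymph node and 13.4 and 6.75 CPM in the VQ marrow (2.85, SE 0.39, edgeR adjusted p = 6.10e-11). Tgtp2, a near-identical copy of Tgtp1, had 27 UMIs in the VQ lymph node and 1 and 2 in the VQ marrow, and reads may be split between the copies. DESeq2 gave an adjusted p for 3 of the IRGs and called 2, and after thinning 3 of the 4 still tested were called, without Gm12250. With a preset coefficient of variation of 0.4 in place of the estimated spread, 5 of 8 were called. Over all genes, DESeq2 called 21, and 55 of 4347 were called after thinning and 30 of 8286 with the preset spread.

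Among receptors and signal proteins 2 of 10 tested genes were higher and 1 was lower in the VQ lymph node than in the VQ marrow. Socs1, a feedback inhibitor of cytokine signalling, had 23 UMIs in the VQ lymph node and 5 and 1 in the VQ marrow (log2 fold change 2.81, SE 0.76, edgeR adjusted p = 0.0113). Stat3 was higher by 1.16 (SE 0.26, edgeR adjusted p = 9.95e-04). Ifngr1, the ligand-binding chain of the interferon-gamma receptor, was the 1 lower gene, with 12.4 CPM in the VQ lymph node and 41.2 and 42.8 CPM in the VQ marrow (-1.70, SE 0.47, edgeR adjusted p = 0.0147). The call for Stat3 was lost with DESeq2, after thinning and with the preset spread, and that for Ifngr1 in 6 of the alternatives. That for Socs1 was lost with all cells, with the preset spread and without other-type marker cells when Bst2 was off the list, and DESeq2 gave it no adjusted p.

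Of the interferon regulatory factors 2 of 7 were higher in the VQ lymph node than in the VQ marrow. Irf1 had 65.9 CPM in the VQ lymph node and 16.3 and 13.5 CPM in the VQ marrow (log2 fold change 2.12, SE 0.38, edgeR adjusted p = 3.49e-06). Irf8 was higher by 1.76 (SE 0.53, edgeR adjusted p = 0.0304), a call lost in 8 of the alternatives. Of the type I interferon response list 6 of 17 tested genes, out of 39 listed, were higher and 0 lower, led by the nucleic acid sensor Zbp1 (1.64, SE 0.32, edgeR adjusted p = 3.53e-05) and followed by Trim30a (1.38), Bst2 (1.19), Ifi27l2a (0.95) and Ifitm3 (0.76). The antigen presentation list had 8 of 15 tested genes higher and 0 lower, with a median of 0.73. Among them B2m, the light chain of class I molecules, had 5565 CPM in the VQ lymph node and 2368 and 2513 CPM in the VQ marrow (1.22, SE 0.10, edgeR adjusted p = 7.18e-30). H2-Q4 (2.09), H2-K1 (1.20), the immunoproteasome subunit Psmb9 (1.16) and the peptide transporter Tap1 (1.10) were also called. DESeq2 called 0 genes of the receptor, regulatory factor and type I lists and 2 of the antigen presentation list, and after thinning 0 genes of the first 3 lists and 3 of the antigen presentation list were called. Not all were tested there. DESeq2 gave no adjusted p for Irf1, Socs1, Ifngr1, Trim30a and H2-Q4. Of these, all but Ifngr1 were also not tested after thinning. With the preset spread 0 genes of all 4 lists were called, B2m included. The call for H2-Q4 was also lost with all cells and without other-type marker cells.

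Among partners of the GBPs in inflammasome activation and autophagy 0 of 18 tested genes were called between VQ lymph node and VQ marrow, with a median of 0.05, and among enzymes that prenylate proteins 0 of 6 were, with a median of -0.22. At an unadjusted p under 0.05 edgeR had 3 of the 18 and 0 of the 6, against 1027 of all 8286 genes tested. DESeq2 called 0 in both lists and 21 over all genes. The interferon genes themselves were too rare to test. Ifng, Ifnb1, Il12a, Il12b and Il27 had 0 UMIs in the chosen cells of every library.

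**Figure D5:**
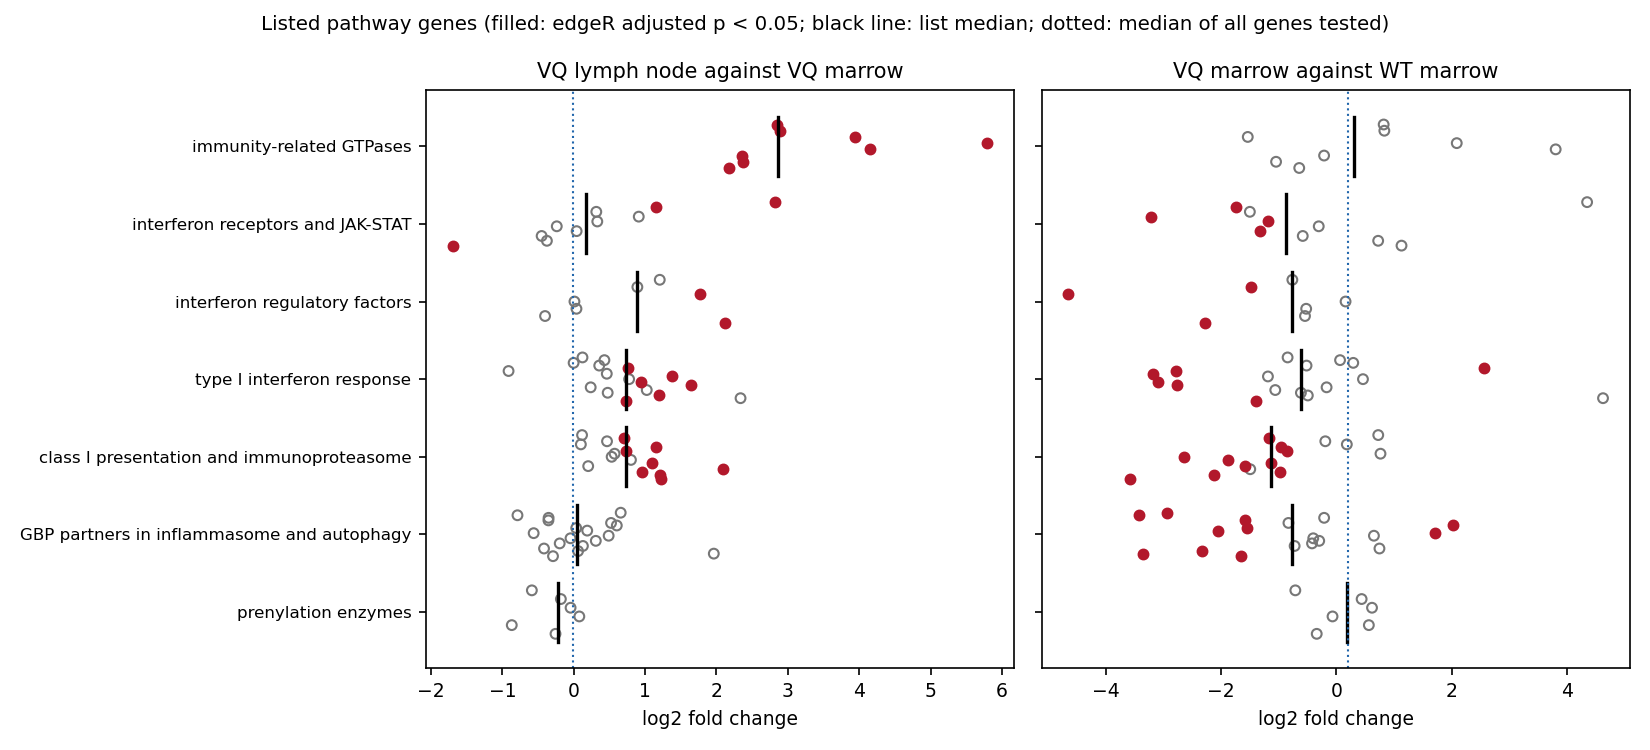
log2 fold change (x axis) of each tested gene in 7 pathway lists (rows) for VQ lymph node against VQ marrow (left) and VQ marrow against wild-type marrow (right). Filled points passed edgeR's adjusted p of 0.05, black lines are list medians and dotted lines the median of all genes tested. On the left the 8 IRGs are all called higher. On the right 0 of them are called, while 10 of 15 antigen presentation genes are called lower.

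Between VQ marrow and wild-type marrow none of the IRGs was called, and most calls in the other pathway lists were lower in the VQ marrow. Here 29.9% of all genes tested were called, 17.1% higher and 12.8% lower in the VQ marrow, and the median log2 fold change of all genes was 0.20 with TMM scaling and 0.56 by library totals, so the ratios by CPM given above include such a shift. Of the IRGs 0 of 8 were called by edgeR, with a median of 0.31, 0 had an unadjusted p under 0.05 and DESeq2 also called 0. Over all 8286 genes tested, 3283 had an unadjusted p under 0.05 with edgeR, and DESeq2 called 489. Irf1 had 16.3 and 13.5 CPM in the VQ marrow and 58.8 CPM in the wild-type marrow (log2 fold change -2.28, SE 0.58, edgeR adjusted p = 7.13e-04), a call lost with DESeq2 and with the preset spread and not tested after thinning. The receptor and signal list had 0 higher and 4 lower of 10 genes, and the regulatory factors 0 higher and 3 lower of 7, with Irf8 among the lower genes (log2 fold change -4.65, SE 0.48, edgeR adjusted p = 6.26e-20), a call that held without cells that carried markers of another type. The antigen presentation list had 0 higher and 10 lower of 15, led by B2m, with 2368 and 2513 CPM in the VQ marrow and 22810 CPM in the wild-type marrow (-3.59, SE 0.10, edgeR adjusted p = 2.38e-245). The type I interferon response list had 1 higher and 5 lower of 17. The higher gene was Ifitm3, a restriction factor of virus entry, with 242.1 and 285.8 CPM in the VQ marrow and 34.3 CPM in the wild-type marrow (2.56, SE 0.41, edgeR adjusted p = 1.12e-08), a call lost with the preset spread. The inflammasome and autophagy partners had 2 higher and 8 lower of 18, with the adaptor Pycard among the lower genes (log2 fold change -2.33, SE 0.26, edgeR adjusted p = 1.62e-17). With DESeq2 the lower calls were 1 in the receptor list, 1 in the regulatory factors, 4 in the antigen presentation list and 4 among the partners. After thinning they were 0, 1, 9 and 3 in the same order of lists, and with the preset spread 1, 1, 3 and 3. The 2 higher partners were called in none of these 3 alternatives.

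In the VQ lymph node against the wild-type marrow, 28.7% of all genes were called, 16.4% higher and 12.2% lower in the VQ lymph node, with a median of 0.18. Of the IRGs 6 of 8 were higher and 0 lower, with a median of 3.04. DESeq2 called 2 of the 3 to which it gave an adjusted p, 3 of 4 were called after thinning, and 1 of 8, Ifi47, with the preset spread. Igtp had 465.3 CPM in the VQ lymph node and 83.3 CPM in the wild-type marrow (log2 fold change 2.15, SE 0.33, edgeR adjusted p = 1.59e-09), and Ifi47 was higher by 3.72 (SE 0.54, edgeR adjusted p = 1.55e-10). Irf1 had 65.9 CPM in the VQ lymph node and 58.8 CPM in the wild-type marrow (-0.17, SE 0.50, edgeR adjusted p = 0.835), the wild-type value from 12 UMIs. Of the antigen presentation list 1 gene was higher and 5 lower of 15, and B2m was among the lower genes (log2 fold change -2.37, SE 0.13, edgeR adjusted p = 4.28e-74). DESeq2 called 0 higher and 3 lower of this list, and with the preset spread 0 were called. The 3 contrasts share libraries, so they are not independent of each other.

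Across the 185 VQ lymph node cells, the 3 genes whose share of UMIs tracked the summed GBPs most closely were IRGs. Among 3351 genes with a UMI in at least 20% of those cells, the highest Spearman correlations were for Irgm1 (0.35), Igtp (0.33) and Ifi47 (0.33), followed by Gimap4, a GTPase of lymphocytes (0.33), Psma1 (0.29), Dnajc15 (0.25), Bcor (0.25) and Cox7b (0.24). Gimap4, which is not an IRG, was level with Ifi47. The median gene had 0.05 and the 95th percentile was 0.17. The summed GBP share itself had a correlation of 0.18 with the total UMIs of the cell. Irf1, with a UMI in 17.3% of VQ lymph node cells and so not among the 3351 genes, had 0.06, and -0.05 and 0.12 in the VQ marrow libraries. In the VQ marrow libraries the same measure was 0.17 and 0.28 for Irgm1, 0.16 and 0.07 for Igtp and 0.06 and 0.08 for Ifi47. Between pairs of the 6 members with at least 20 UMIs in the VQ lymph node, the correlation ran from 0.06 to 0.31 over 15 pairs, highest for Gbp4 with Gbp7. All points come from single libraries and share their cells' depth, so these values are descriptions, and correlations of this size in sparse counts are weak.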

How the data were processed

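The deposited tables are unscaled UMI counts for each gene in each cell, made by the authors from Bio-Rad ddSEQ and Illumina SureCell 3′ libraries per the labels' protocols, with genome build mm10 per the submitters' processing notes. The aligner and counter are not given in the sources used here. All values were whole numbers. No doublet caller was run.

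The GBP genes and all lists were chosen with earlier results of these data known. Counts were summed per library over the chosen cells and scaled to library totals (CPM). Cells were never replicates. edgeR 4.0.16 (R 4.3.3; TMM, filterByExpr, quasi-likelihood test, Benjamini-Hochberg) fitted 4 libraries as 3 group means, and was tested on simulated data. The SE is computed back from the F statistic. Of the 8 members, 6 passed the filter on low counts. Per list and contrast, up to 5 called genes with the largest change were named, and Irf1 always. In the receptor and signal list 1 gene is not reported here, and the list's counts leave it out. Alternatives were DESeq2 1.42.0, other scalings, no low-count filter, Jchain thresholds of 3% and 10%, all cells, thinning, removal of cells with at least 2 markers and 3 marker UMIs of another type, and a preset coefficient of variation of 0.4. The counts of the VQ marrow pair differed beyond sampling noise (chi-square over degrees of freedom 1.63 over 7696 genes). Both were kept as replicates because the labels number them so. This value cannot tell a difference between mice from a technical one.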

Additional observations from a re-analysis of the deposited data

How the results depend on the processing

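Genes called between VQ lymph node and VQ marrow numbered 259, and 21 with DESeq2, 107 with all cells, 156 with a Jchain threshold of 3%, 83 without other-type marker cells when Bst2 was not used (an alternative chosen after seeing the data), 55 after thinning and 30 with the preset spread. Between VQ marrow and wild-type marrow they numbered 2478, and 489 with DESeq2, 871 after thinning and 513 with the preset spread. Between VQ lymph node and wild-type marrow they numbered 2375, and 401 with DESeq2, 1556 without other-type marker cells when Bst2 was not used, 786 after thinning and 327 with the preset spread. With library totals as the only scaling, 2141 genes were higher and 709 lower in VQ marrow than in wild-type marrow, against 1420 and 1058 with TMM, and 2025 higher and 715 lower in VQ lymph node than in wild-type marrow, against 1361 and 1014. DESeq2 gave 216 higher and 273 lower in VQ marrow than in wild-type marrow, and 189 higher and 212 lower in VQ lymph node than in wild-type marrow. With library totals the median log2 fold change of all genes was 0.56 and 0.51. Thinning tests fewer genes and fewer cells; for the other settings the cause was not tested.

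The family's log2 ratio of VQ lymph node to VQ marrow was 2.39, and 2.83 after thinning, with 2.25 to 2.46 when a VQ marrow replicate was left out. That of VQ marrow to wild-type marrow was 1.38, and 1.013 with TMM, 0.94 with RLE size factors and 1.06 without Jchain in the totals. It was 0.49 after thinning, a single random draw, and 1.31 to 1.52 when a replicate was left out. That of VQ lymph node to wild-type marrow was 3.77 and ran from 3.33 to 3.85. The share of cells with a family UMI was 49.7% in the VQ lymph node, 17.65% and 19.9% in the VQ marrow and 4% in the wild-type marrow at 500 UMIs. Without thinning it was 91.9% in the VQ lymph node and 53.1% in the VQ marrow, against 71.4% and a mean of 20.4% at 1000 UMIs, and leaving out a VQ marrow replicate gave 18.8% to 22.1%. Among the members, the sign of the log2 fold change for Gbp2 and Gbp9 between VQ marrow and wild-type marrow changed with the setting (-0.12 to 4.16 and -0.75 to 1.00). Between VQ lymph node and wild-type marrow, Irf1 turned to 0.16 with library totals and to 0.0014 without other-type marker cells. No paired analysis was possible because the labels number the VQ marrow libraries alone, so no groups share replicate numbers. Depth limits the wild-type values most, with 24 family UMIs.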
